A study of Mus musculus with 12 samples.

Results

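Calb1, Calb2, Pvalb, Necab1, Necab2 and Ncald encode calcium-binding proteins that are widely used as markers of neuron subtypes in the spinal cord. They were taken as a named list by NCBI Gene ID and are 6 of the 45777 gene identifiers in the series. Calb1 was chosen by its lower measured level in Isl2 KO brachial cord, and Pvalb stands on a list that the study drew from the lumbar KO and heterozygote libraries. Both values are therefore given as descriptions without a test, as is the difference between levels in the KO effect of each. The rule that chose the 6 genes names no difference between brachial and lumbar cord. Earlier results of these data were known when the genes were chosen, however. The comparison of levels also uses the same libraries, the lumbar ones that listed Pvalb and the brachial ones that chose Calb1 among them.

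The libraries were made from total RNA of mouse ventral spinal cord at E12.5, dissected at the brachial (forelimb) or lumbar (hindlimb) level and trimmed around the Hb9::GFP reporter, which marks motor neurons (MNs). The groups, each with n = 3 libraries, were brachial Isl2 +/- (heterozygote), brachial Isl2 -/- (KO), lumbar heterozygote and lumbar KO. The controls thus carry one mutant Isl2 allele themselves, and no wild-type cord entered the comparison. The tissue was not sorted, so MNs, interneurons, progenitors, glia and blood vessels contribute RNA, and fewer cells of a type cannot be told apart from less RNA per cell. The study used 3 animals of each genotype, and the labels do not say whether a brachial and a lumbar library came from one embryo.

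Aligned sequence ranged from 4.48 to 6.64 Gb per library. Small RNAs took 23.7% to 38.2% of the TPM (StringTie's abundance measure, corrected for transcript length and library size), and each library's TPM was therefore divided by a size factor, which ranged from 0.896 to 1.25. All levels below are in this rescaled TPM. Isl2, the targeted gene, read 8.69, 8.29 and 9.68 TPM in the brachial heterozygotes and 6.01, 7.25 and 4.46 TPM in the brachial KO libraries. At the lumbar level it read 10.3, 8.40 and 9.39 TPM in heterozygotes and 7.30, 6.51 and 8.21 TPM in KO libraries. On this scale the genotypes did not overlap at either level, and the KO mean was 66.5% and 78.4% of the heterozygote mean (limma adjusted p = 0.3567 and 0.9992). In TPM as deposited, brachial KO 2, the library with the fewest small RNAs and the highest size factor, read 9.08 TPM, above the brachial heterozygotes at 8.61, 8.73 and 9.04 TPM. The transcript was thus lower but not absent in the KO libraries, and which part of the gene the allele removes was not analysed here. Motor neuron genes were abundant, with a summed 212 to 540 TPM in each library.

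All 6 proteins bind calcium through EF-hands, paired helices around a loop that holds the ion. Calbindin (Calb1), calretinin (Calb2) and parvalbumin (Pvalb) are mobile cytoplasmic buffers: in the spinal cord calbindin marks Renshaw cells, the inhibitory interneurons that feed back on MNs, as well as dorsal neurons, calretinin marks several excitatory and dorsal populations, and parvalbumin marks proprioceptive sensory neurons and, later, groups of inhibitory interneurons. Necab1 and Necab2 encode N-terminal EF-hand proteins of neurons that are known from spinal interneurons and sensory ganglia. Ncald encodes neurocalcin delta, a membrane-switching neuronal calcium sensor that regulates endocytosis and is known as a modifier of spinal muscular atrophy.

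Calb1 (gene 12307) lies on chromosome 4 at 15881264 to 15906709 and Necab1 (gene 69352) on the same chromosome at 14952245 to 15149804 (GRCm38). Calb2 (gene 12308, 110142526 to 110168212) and Necab2 (gene 117148, 119446719 to 119472640) lie on chromosome 8. Pvalb (gene 19293, 78191112 to 78206400) and Ncald (gene 52589, 37366175 to 37792519) lie on chromosome 15. Of 50-base windows in the transcripts, none of Calb1, Calb2, Pvalb, Necab1 or Necab2 was shared with another gene on the same strand, and 1.62% of those of Ncald were shared with Gm49397. Gm11837, at a mean of 1.70 TPM, overlaps the far end of Necab1 on the opposite strand, and the library kit kept strand.

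Isl2 is a LIM-homeodomain transcription factor, and homeodomains commonly bind a TAAT core. The 250 bases before the annotated start are shown for Pvalb and Necab2, the 2 members whose windows were at hand. Sequences are from RefSeq (GRCm38.p6), 5′ to 3′ on the strand of the gene, with every TAAT, read on either strand (ATTA), in capitals. The Pvalb window is chr15:78206401-78206650 on the minus strand and the Necab2 window chr8:119446469-119446718 on the plus strand.
Pvalb: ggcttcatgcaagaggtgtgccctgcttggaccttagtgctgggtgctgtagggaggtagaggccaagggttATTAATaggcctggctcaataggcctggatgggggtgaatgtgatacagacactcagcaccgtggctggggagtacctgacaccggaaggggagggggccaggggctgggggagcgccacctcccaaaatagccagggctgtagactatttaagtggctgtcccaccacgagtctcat
Necab2: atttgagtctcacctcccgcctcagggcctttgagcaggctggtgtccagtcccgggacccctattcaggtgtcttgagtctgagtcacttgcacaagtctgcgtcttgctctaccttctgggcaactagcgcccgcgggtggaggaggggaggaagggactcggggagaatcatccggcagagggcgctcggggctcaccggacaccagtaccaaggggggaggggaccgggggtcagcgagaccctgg
The Pvalb window held 2 overlapping core matches, beginning 178 and 176 bases before the start, and the Necab2 window held 0. A second annotated start of Pvalb, with the window chr15:78204238-78204487, also held 0. Of all 32851 windows of this length, 54.9% held at least 1 core and 30.8% held at least 2, so neither count is unusual. No binding was measured in these libraries.

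The 6 genes spanned a wide range of abundance. In brachial heterozygotes Ncald was highest, followed by Necab2, Calb1, Calb2, Necab1 and Pvalb. TPM is corrected for transcript length, but this order is tied to the measure. The ratio of coverage to FPKM, a related measure, was set against that of single-transcript genes. It was 0.034 to 0.037 of theirs for Ncald, with 33 transcripts, and 0.393 to 0.446 for Necab2. For the other members it was at least 0.939. The order by coverage was not analysed. Ncald read 32.7, 36.6 and 40.3 TPM in the brachial heterozygotes, or 36.5 ± 3.83 (SD, n = 3), and Pvalb read 1.09, 1.34 and 1.96 TPM, or 1.46 ± 0.448 (SD, n = 3). Summed over the 6 genes, the level was 80.1 ± 4.34 TPM in brachial heterozygotes, 68.6 ± 5.81 in brachial KO, 51.8 ± 3.27 in lumbar heterozygotes and 47.1 ± 1.15 in lumbar KO libraries (SD, n = 3 each). The lumbar sums, from 45.7 to 54.2 TPM, all lay below the brachial sums, from 61.9 to 84.1 TPM.

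**Figure D1:**
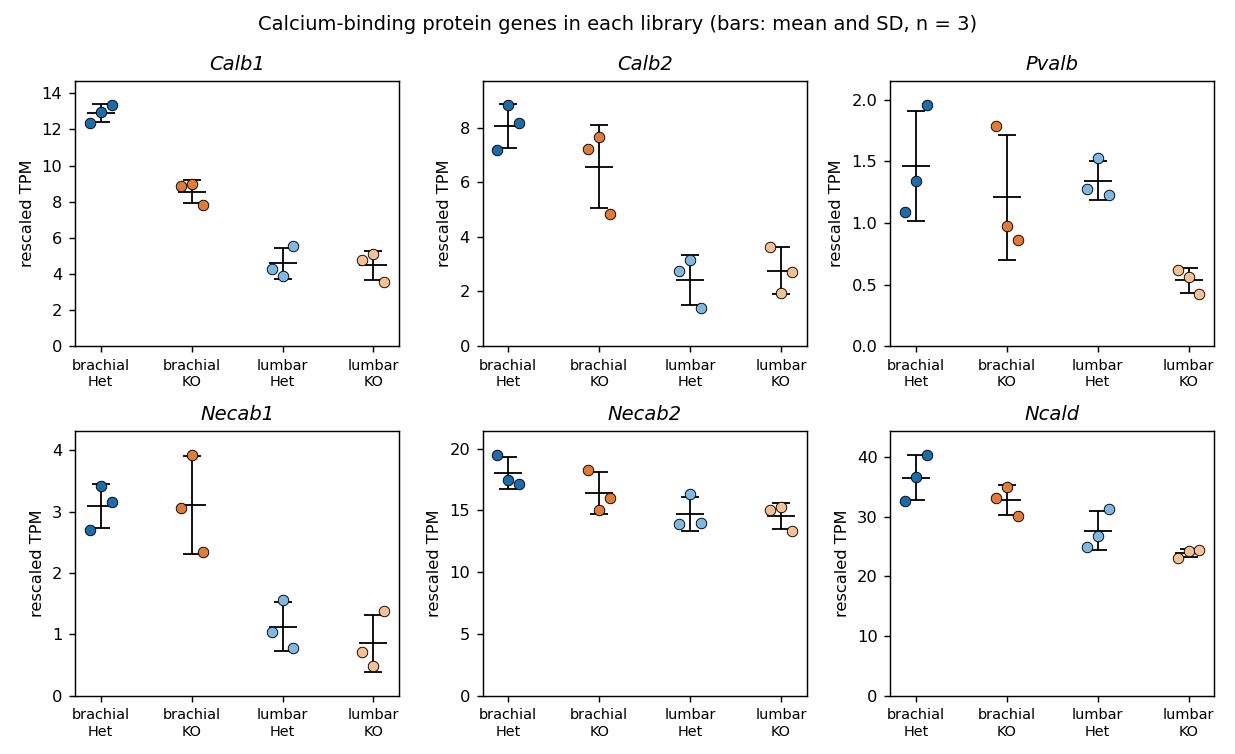
Rescaled TPM (vertical axes, starting at 0, each with its own scale) of the 6 genes in the 12 libraries, by level and Isl2 genotype. Points are libraries, and bars give the mean and SD of 3 libraries. Calb1, Calb2 and Necab1 were lower in all lumbar than in all brachial libraries, Calb1 also separated the brachial genotypes, and Pvalb and Ncald the lumbar genotypes.

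The lumbar and brachial levels were compared over all 12 libraries with genotype as a term. All 6 genes had a lower lumbar mean, and 5 of the 6 (Calb1, Calb2, Necab1, Ncald and Necab2) passed an adjusted p of 0.05 in limma, a linear model fitted across all genes. Of the 16698 genes tested, 9.62% passed as lower and 8.91% as higher at the lumbar level. The 3 large differences were those of Necab1, Calb2 and Calb1, which stood at ranks 58, 79 and 156 from the lowest log2 difference of all genes tested. In these 3 genes every lumbar library lay below every brachial library, which was so for 4.67% of genes.

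Calb1 read 12.36, 12.98 and 13.35 TPM in brachial heterozygotes and 8.89, 8.96 and 7.84 TPM in brachial KO libraries. In the lumbar cord it read 4.30, 3.91 and 5.54 TPM in heterozygotes and 4.74, 5.12 and 3.56 TPM in KO libraries. Even the lowest brachial library, a KO, lay above the highest lumbar library. The comparison of levels takes in the brachial libraries of both genotypes by which Calb1 was chosen. The lumbar mean of 4.53 TPM was 42.2% of the brachial mean of 10.7 TPM, a log2 difference of -1.21 (SE 0.13, 95% interval -1.49 to -0.93, limma adjusted p = 0.0001121, exact permutation p = 0.005, two-sided, which is the smallest the 400 rearrangements within genotype can give).

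Calb2 read 7.19, 8.82 and 8.17 TPM in brachial heterozygotes and 7.23, 7.65 and 4.84 TPM in brachial KO libraries. At the lumbar level it read 2.74, 3.16 and 1.41 TPM in heterozygotes and 3.64, 1.93 and 2.72 TPM in KO libraries. The levels did not overlap and the genotypes overlapped at both. The mean fell from 7.32 to 2.60 TPM, a log2 difference of -1.50 (SE 0.22, limma adjusted p = 0.0009122). Pvalb, the least abundant buffer, gave means of 1.34 TPM at the brachial and 0.939 TPM at the lumbar level. Its libraries overlapped between levels, and its log2 difference of -0.54 (SE 0.24, limma adjusted p = 0.1432) did not pass. That value takes in the lumbar libraries of both genotypes by which Pvalb was listed. As a description, the difference was -0.08 in heterozygotes only and -0.99 in KO libraries only.

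The NECAB genes differed in size of effect. Necab1 read 2.71, 3.42 and 3.16 TPM in brachial heterozygotes, 3.06, 3.92 and 2.34 TPM in brachial KO, 1.04, 1.57 and 0.770 TPM in lumbar heterozygotes and 0.705, 0.478 and 1.37 TPM in lumbar KO libraries. All 6 brachial values exceeded all 6 lumbar values. Its mean fell from 3.10 to 0.989 TPM, with a log2 difference of -1.63 (SE 0.24, limma adjusted p = 0.000995). Necab2, the more abundant of the pair, read between 15.0 and 19.5 TPM there and between 13.3 and 16.3 TPM at the lumbar level, so the ranges overlapped. Its log2 difference was -0.23 (SE 0.07, limma adjusted p = 0.03987, exact permutation p = 0.015), and it did not pass in 12 of 24 alternative analyses, among them the fit with the replicate number as a block (adjusted p = 0.06943) and the omission of brachial heterozygote 1, 2 or 3, brachial KO 1, lumbar heterozygote 1 or 3, or lumbar KO 3. The ratio of Necab2 to Necab1 was 5.73 ± 1.23 in brachial and 17.5 ± 8.42 in lumbar libraries (SD, n = 6 each).

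Ncald read 33.06, 35.01 and 30.04 TPM in brachial KO, 24.8, 26.8 and 31.3 TPM in lumbar heterozygotes and 23.1, 24.2 and 24.3 TPM in lumbar KO libraries. One lumbar heterozygote reached above the lowest brachial library, so the ranges met. The mean fell from 34.6 to 25.8 TPM, a log2 difference of -0.43 (SE 0.07, limma adjusted p = 0.00171). The log2 differences of all 6 genes lay below 0 in heterozygotes alone and in KO libraries alone. The difference of Calb1 was -1.49 in heterozygotes and -0.93 in KO libraries, both descriptions, since they rest in part on brachial values used to choose it.

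**Figure D2:**
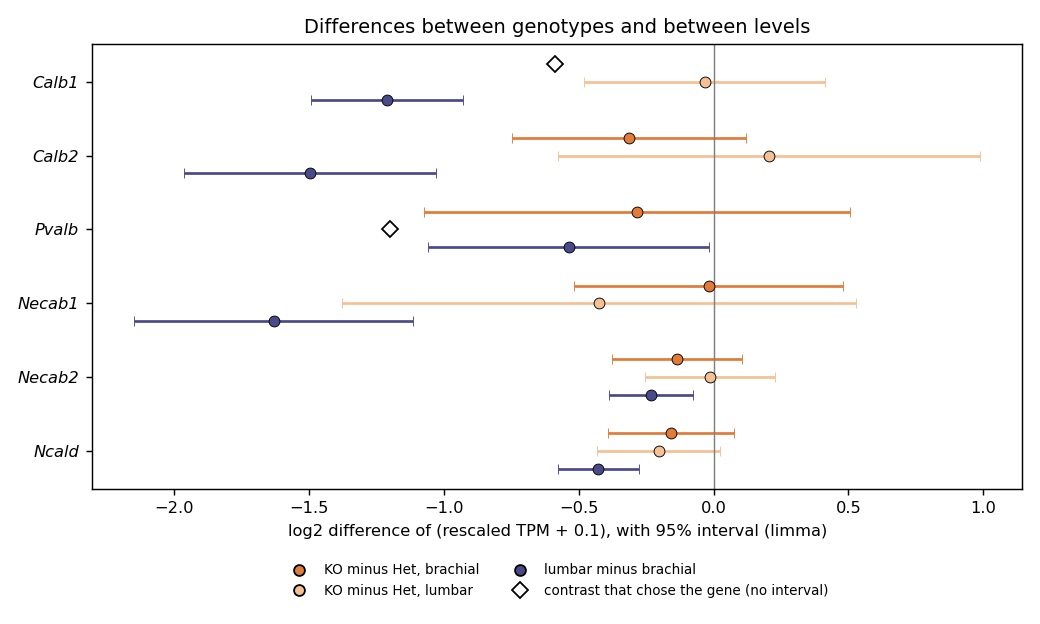
Log2 differences of rescaled TPM + 0.1 (horizontal axis) for KO minus heterozygote at each level and lumbar minus brachial, with 95% intervals from limma. Open diamonds are the values that placed Calb1 and Pvalb on the list and carry no interval. The intervals of the lumbar minus brachial difference lie below 0 for Calb1, Calb2, Necab1, Necab2 and Ncald. The Calb1 interval takes in the brachial libraries by which it was chosen. That of Pvalb, which ends at -0.02, takes in the lumbar libraries by which it was listed, with a difference of -0.08 in heterozygotes only. The genotype intervals shown all include 0.

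The lumbar means of the 6 genes were lower by different factors, so the make-up of their summed TPM shifted between levels. Ncald supplied 46.6% ± 2.21 of the sum in brachial and 52.0% ± 3.24 in lumbar libraries, and Necab2 23.33% ± 2.575 and 29.67% ± 2.297 (SD, n = 6 each). Calb1 supplied 14.3% ± 1.99 and 9.16% ± 1.38, Calb2 9.78% ± 1.11 and 5.31% ± 1.74, and Necab1 4.18% ± 0.693 and 2.002% ± 0.8393. The share of Pvalb was 1.78% ± 0.499 and 1.87% ± 0.836. The lumbar shares of Calb1, Calb2 and Necab1 all lay below their brachial shares, from 7.34% to 10.8% against 12.3% to 16.4% for Calb1. These shares depend on one another, since they add up to the whole. Those of Ncald and Necab2 are also tied to TPM as the measure, as given above.

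**Figure D3:**
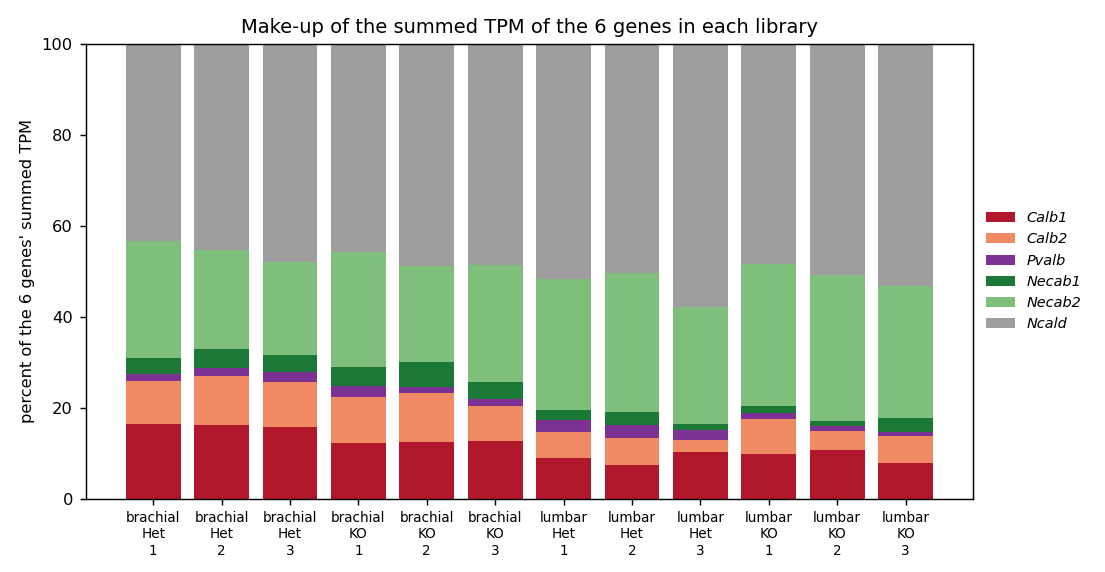
Percent of the summed rescaled TPM of the 6 genes contributed by each gene (vertical axis) in each of the 12 libraries. Ncald and Necab2 made up most of every library's sum, and the parts of Calb1, Calb2 and Necab1 were smaller in the lumbar libraries.

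In the brachial cord, KO and heterozygote libraries were compared to ask which of the genes depend on Isl2 there. Calb1, chosen for this contrast, had 8.56 ± 0.630 TPM in KO and 12.9 ± 0.503 TPM in heterozygotes (SD, n = 3 each), or 66.4% of the heterozygote level and a log2 difference of -0.59. The highest KO library, at 8.96 TPM, lay below the lowest heterozygote, at 12.4 TPM. Such a separation of the genotypes, in either direction, was seen in 20.1% of the 16768 genes tested. By the study's thresholds, a log2 difference beyond 0.5 and an unadjusted p under 0.05, 1 of the 6 genes was lower in KO (Calb1, through the choice) and 0 were higher, against 0.871% lower and 2.21% higher of all genes. With TPM as deposited Calb1 read -0.41 and 0 of the 6 genes were called.

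The other 5 genes overlapped between the brachial genotypes, and none passed. Calb2 gave a log2 difference of -0.31 (95% interval -0.75 to 0.12, limma adjusted p = 0.4257), Pvalb -0.28 (-1.07 to 0.51), Necab1 -0.02 (-0.52 to 0.48), Necab2 -0.14 (-0.38 to 0.10) and Ncald -0.16 (-0.39 to 0.08). For Necab1, Necab2 and Ncald the sign turned positive when TPM were used as deposited, a scale on which the median of all genes stood at 0.16. The intervals of Pvalb and Calb2 leave room for changes of the size seen in Calb1. Single libraries carried much of both values: Calb2 read -0.11 without brachial KO 3, and Pvalb read -0.58 without brachial KO 1 and -0.07 without brachial heterozygote 3.

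In the lumbar cord the genotypes of Pvalb and Ncald did not overlap. Pvalb read 1.28, 1.53 and 1.23 TPM in heterozygotes and 0.615, 0.563 and 0.421 TPM in KO libraries. The KO mean of 0.533 TPM was 39.6% of the heterozygote mean of 1.35 TPM, a log2 difference of -1.20. This is the contrast in which the study listed Pvalb, so the value is a description. By the same thresholds 1 of the 6 genes was lower (Pvalb) and 0 higher, against 0.794% and 0.981% of the 16620 genes tested. The Pvalb difference read -0.61 with a pseudocount of 1 in place of 0.1.

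Calb1 in the lumbar cord had 4.48 ± 0.812 TPM in KO and 4.58 ± 0.852 TPM in heterozygotes (SD, n = 3 each). The groups overlapped, and the log2 difference of -0.03 (SE 0.19, limma adjusted p = 0.9992) had a 95% interval of -0.48 to 0.41. Ncald was lower in every lumbar KO library than in every heterozygote, at 23.9 ± 0.666 and 27.6 ± 3.30 TPM, which was so, in one direction or the other, for 9.94% of genes. Its log2 difference of -0.20 (SE 0.10, limma adjusted p = 0.9992, exact permutation p = 0.1, the smallest that 3 against 3 libraries allow) did not pass. The Ncald value was -0.11 without lumbar heterozygote 3 and -0.28 without lumbar heterozygote 1. Calb2 gave 0.21 (-0.58 to 0.99), Necab1 -0.42 (-1.38 to 0.53) and Necab2 -0.01 (-0.26 to 0.23), each with overlapping genotypes. The Necab1 value was -0.12 without lumbar KO 2, -0.18 without lumbar heterozygote 2, -0.65 without lumbar heterozygote 3 and -0.80 without lumbar KO 3. The wide interval of Necab1 leaves a change of the size of Pvalb's possible, and that of Necab2 does not.

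Whether the KO effect differed between levels was tested with an interaction term. Of the 16698 genes tested, 0% had an adjusted p under 0.05 in limma, and 738 had an unadjusted p under 0.05. The difference of the KO effects, lumbar minus brachial, was 0.55 for Calb1 and -0.91 for Pvalb on the log2 scale, both given as descriptions since each holds the contrast that chose the gene. For the genes that can be tested it was 0.52 for Calb2 (SE 0.42, adjusted p = 0.8125), -0.41 for Necab1 (SE 0.48, adjusted p = 0.846), 0.12 for Necab2 (SE 0.14, adjusted p = 0.846) and -0.05 for Ncald (SE 0.14, adjusted p = 0.9387), all by limma. Leaving out single libraries moved the value of Calb2 between 0.18 and 0.74 and that of Necab1 between -0.78 and -0.10.

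Ordered by group mean, brachial heterozygotes came first for 5 of the 6 genes, and brachial KO for Necab1, where it overlapped the brachial heterozygotes. For Calb1 the order was brachial heterozygote, brachial KO, lumbar heterozygote and lumbar KO, and the last pair overlapped. For Pvalb it was brachial heterozygote, lumbar heterozygote, brachial KO and lumbar KO, and the first 3 groups overlapped in order. For Necab2 every pair of neighbours in the order overlapped. The spread between libraries was wide for Necab1 in lumbar KO, with a coefficient of variation of 54.6%.

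Among 40 other EF-hand genes, 34 were abundant enough to test between levels, of which 9 fell and 3 rose from brachial to lumbar. Their median log2 difference was -0.09, beside -0.87 for the 6 genes and 0.01 for all genes. The 9 lower genes were mostly neuronal calcium sensors, the family of Ncald, in which 7 of 9 tested were lower, 0 higher and the median was -0.60. Vsnl1 (visinin-like 1), a membrane-switching sensor, had means of 6.04 and 1.91 TPM at the brachial and lumbar levels and a log2 difference of -1.79 (SE 0.39, limma adjusted p = 0.008301). Kcnip1, a subunit of A-type potassium channels, had 47.9 and 31.7 TPM and a difference of -0.60 (SE 0.09, limma adjusted p = 0.0008688). Kcnip3 (-0.94), Hpcal4 (-0.80), Hpcal1 (-0.50), Hpca (-0.49) and Ncs1 (-0.27) also fell.

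The buffers' close relatives gave little: Scgn (secretagogin) averaged 0.109 and 0.190 TPM, Ocm (oncomodulin) was listed at 0 in all libraries, and Necab3 had 4.51 and 4.71 TPM with a log2 difference of 0.08 (SE 0.12). The differences of Necab3 and Necab1 were not tested against each other. Calmodulins and their relatives were split, with 1 of 10 lower (Ppp3r1, calcineurin B, -0.33) and 2 higher. Cabp7, a calmodulin-like protein of the Golgi and lysosomes, went against the 6 genes, with 7.66 and 22.4 TPM and a log2 difference of 1.52 (SE 0.11, limma adjusted p = 2.402e-06). Cetn2, a centrin, rose by 0.30. The S100 family had 0 of 7 past the threshold. In the secretory and other group, Efhd2 fell (-0.52) and Rcn2 rose (0.25).

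Of 18 genes for calcium pumps, exchangers and release channels, all tested between levels, 8 fell and 0 rose from brachial to lumbar, with a median of -0.32. Slc24a2, a potassium-dependent sodium/calcium exchanger of neurons, differed by -1.12, Ryr2, the ryanodine receptor of intracellular stores, by -1.09, and the plasma membrane calcium pumps Atp2b3 and Atp2b2 by -0.80 and -0.58. Between genotypes, 0 of 17 of these genes passed the study's thresholds at either level. Of the 34 other EF-hand genes, S100a11 was higher in brachial KO, and Calml4 and S100b were lower in lumbar KO, with limma adjusted p of 0.3567 for the first and 0.9992 for the others.

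**Figure D4:**
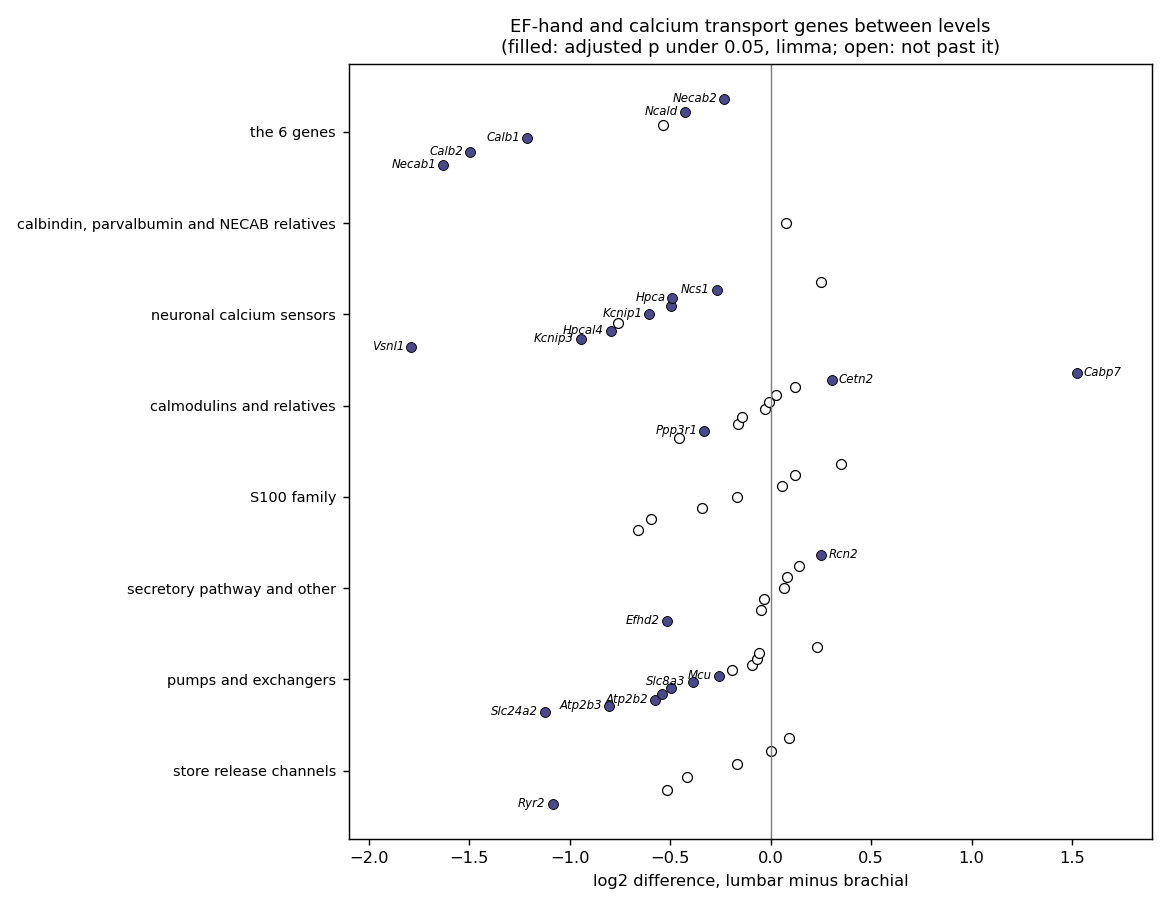
Log2 difference of lumbar minus brachial (horizontal axis) for the 6 genes, the other EF-hand genes by family and the calcium transport genes. Filled points passed an adjusted p of 0.05 in limma and most of them are named, and open points did not. Neuronal calcium sensors and calcium pumps lie mostly below 0, S100 genes on both sides, and Cabp7 at 1.52.

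Markers of cell types were set beside the level difference. Among Renshaw cell genes, Onecut1 gave 0.58 (SE 0.21), Onecut2 0.33 (SE 0.26) and Foxd3 0.05 (SE 0.15), and none of these passed in limma. Of 9 V1 interneuron genes, the class that holds Renshaw cells, Nr5a2 fell (-0.42) and En1 rose (0.79), from 4.59 to 8.26 TPM. Among genes of the other ventral classes, Sim1 of V3 neurons rose by 0.60 and Sox14, a V2 gene, by 0.54. Of 11 dorsal interneuron genes Barhl1 (-0.91) and Barhl2 (-0.96) fell and Lhx9 rose (0.95), and of 9 motor neuron genes Prph (-2.62) and Slc5a7 (-1.10) fell. Only 4 of the 9 motor neuron genes lay below 0, and their median was 0.09. Lhx3 gave 0.45 and Ret 0.36, and neither passed. Members of the V1 and dorsal lists thus passed in both directions.

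Single marker genes of some other cell types also differed between levels. Of 11 pan-neuronal genes 3 fell (Snap25, Nefm and Syt1), with a list median of -0.10 and summed levels of 5165 to 6048 TPM in brachial and 4639 to 5905 TPM in lumbar libraries. Of 7 progenitor genes 4 rose (Nkx6-1, Mki67, Hes5 and Sox2) and 2 fell (Olig2 and Fabp7). Of 5 microglia genes 4 fell, from a summed 17.3 to 26.2 TPM to a summed 7.463 to 15.97 TPM, as did 3 of 5 endothelial genes (56.6 to 78.4 TPM and 46.5 to 59.8 TPM) and 1 of 3 Schwann cell and crest genes (Erbb3). Blood genes (0 of 6), floor plate genes (0 of 4) and skeletal muscle genes (0 of 2) did not pass. The part of these cell types in the level difference was not tested.

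Parvalbumin is also a product of sensory neurons and muscle, and the markers of both are given beside it. Sensory neuron genes summed to 1.63 to 3.22 TPM in each library, with Runx3, Scn10a and Mrgprd at 0 throughout, and 0 of 3 tested passed between levels. Skeletal muscle genes summed to 1.85 to 3.08 TPM, with Myod1 and Ckm at 0 throughout. Both sums overlapped between the lumbar genotypes, at 1.63 to 2.31 TPM in heterozygotes and 1.76 to 3.22 TPM in KO for sensory neuron genes and 2.08 to 2.93 TPM and 1.85 to 2.81 TPM for muscle genes, and their part in the Pvalb value was not tested. Of the cell type lists, Prph of the motor neuron genes was lower (-0.78) and Hba-x of the blood genes higher (0.69) in lumbar KO by the study's thresholds. In brachial KO, beside the value of Calb1, Prox1 of the V1 genes (0.53), Gata3 (0.71) and Nkx6-1 (0.64) were higher and none was lower.

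Necab1 and Calb1, the members with the first and the third largest level difference, lie 731.5 kb apart on chromosome 4. Within 1 Mb of either, 10 other genes were tested, and 0 of them passed the limma threshold in either direction. Their log2 differences ranged from -0.16 to 0.71 with a median of 0.14. Decr1 and Nbn, protein-coding genes next to Calb1, gave 0.25 (SE 0.11) and 0.23 (SE 0.08), and Tmem64, between Necab1 and Calb1, gave 0.09 (SE 0.09). Necab1 and Calb1 were thus the genes of this stretch that passed.

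**Figure D5:**
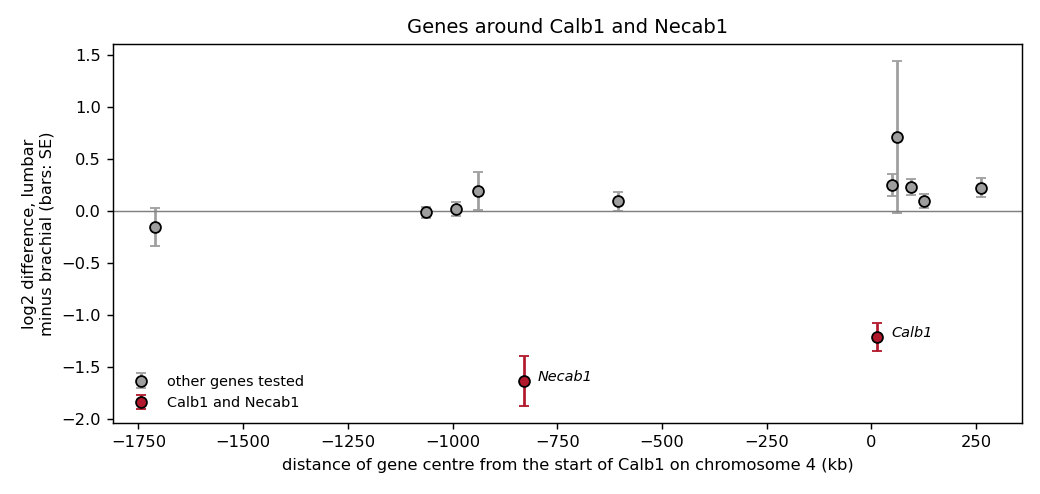
Log2 difference of lumbar minus brachial (vertical axis, bars give the SE) of the tested genes around Calb1 and Necab1, by the distance of each gene's centre from the start of Calb1 in kb. Necab1 (-1.63) and Calb1 (-1.21) lie far below 0, and the other genes lie between -0.16 and 0.71.

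The genes whose levels over the 12 libraries were most like each member were taken from 13269 protein-coding genes by Pearson r of log2 levels, as a description of libraries that share level and genotype. For Calb1 they were Capn1 (calpain 1, a calcium-dependent protease, r = 0.979), Bcam (0.972) and Resp18 (0.965). For Calb2 they were Prss12 (neurotrypsin, r = 0.982), Nrip3 (0.978) and Pde1a (a calmodulin-dependent phosphodiesterase, 0.975), and for Necab1 Ripor2 (0.983), Itgb5 (0.982) and Zmat4 (0.980). Ncald was most like Chac2 (0.981), Tmem65 (0.970) and Vstm5 (0.969). Likeness was weaker for Pvalb, with Paxx (0.937), Ado (0.921) and Rsph3b (0.920), and for Necab2, with Tradd (0.901), Apold1 (0.889) and Cilp2 (0.883). None of the 6 genes was among the 3 genes most like another.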

How the data were processed

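Ventral spinal cord was sequenced as stranded, ribosome-depleted total RNA in 12 libraries. Per the submitters' processing notes and the study's methods, the authors trimmed reads with Trimmomatic 0.38 (FastQC 0.11.7), aligned them to mm10 with HISAT2 2.1.0 and Bowtie2 2.3.4.1, and estimated each library separately with StringTie 2.1.3b. The deposited tables give TPM, FPKM and coverage per gene without counts, so the study's DESeq2 test could not be run. FPKM served only to check TPM, and coverage as an alternative. Depth was estimated from coverage and gene length as 4.48 to 6.64 aligned Gb. It may limit the precision of low genes such as Pvalb, which was not tested.

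TPM were divided by median-of-ratios size factors over all 12 libraries, so that both levels share one scale. Genes with a mean of at least 0.5 TPM in the libraries compared were tested on log2(TPM + 0.1) with limma 3.58.1 in R 4.3.3, with a variance trend and Benjamini-Hochberg adjustment over all genes tested. Fold changes are on that scale, which understates low genes. KO and heterozygote libraries were compared within each level (n = 3 each), and lumbar with brachial over 12 libraries with genotype as a term. P-values measure the spread between these libraries. Single-gene permutation tests were exact and two-sided. The fit was tested on simulated data. Python 3.11.15 with pandas 2.3.3 and matplotlib 3.10.9 was used for joins and plots.

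The 6 genes and all lists were chosen with earlier results of these data known, and the pan-neuronal list after the members' values had been seen. Genes named were the members, Isl2, the 3 genes most like each member, and the genes of each list with the largest differences past the threshold, to which those that a sentence needed were added after their values were seen. Gene symbols came from NCBI Gene IDs, with 45679 of 45777 matched. Correlations of same-numbered libraries' deviations from their group means ranged from -0.21 to 0.34, and the labels tie no number to an embryo, so replicate numbers were not used to pair libraries in the main comparison. Brachial and lumbar libraries may still share embryos. Alternatives were other pseudocounts, filters, scalings, units and fits, and leaving out each library. Some genes of the marker lists are not reported here.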

Additional observations from a re-analysis of the deposited data

How the results depend on the processing

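The number of the 6 genes called was 1 in the brachial genotype comparison and 0 with TPM as deposited, where Calb1 differed by -0.41. It was 1 in the lumbar one and 0 with a mean of at least 1 TPM, which removes Pvalb. Between levels it was 5, with 3 in heterozygote libraries only (327 of 16620 genes were lower) and 1 in KO libraries only (161 of 16789). Calb1 is counted in both, as a description, since these fits rest in part on brachial values used to choose it. The number was 4 with the replicate block and 4 to 5 when each library was left out. The lost call was that of Necab2 in the last case and under the replicate block (adjusted p = 0.06943). It was also lost with no filter (0.05983) and without a variance trend (0.05054), over an adjusted p range of 0.01044 to 0.4048. The replicate block changed no other call. As deposited, the median of all genes was 0.16 in the brachial and -0.13 in the level comparison, and calls over all genes were 47 lower and 1211 higher (146 and 371 in the rescaled data) and 2214 lower and 646 higher (1607 and 1488). On that scale the signs of Necab1 (0.15), Necab2 (0.0392) and Ncald (0.0192) in the brachial comparison and of Necab2 in the interaction (-0.0425) turned. Leaving out each library turned signs near 0, for Necab1 in the brachial cord (-0.20 to 0.16), for Calb1 (-0.14 to 0.12), Calb2 (-0.13 to 0.43) and Necab2 (-0.0531 to 0.0616) in the lumbar cord and for Ncald in the interaction (-0.12 to 0.0453). With a pseudocount of 1, Pvalb read -0.61 in the lumbar comparison and -0.45 in the interaction. The cause of these changes was not tested. Calb1, Calb2 and Necab1 kept a lower lumbar level in all 24 alternatives, with log2 differences of -1.49 to -0.93, -1.76 to -1.22 and -1.83 to -1.06, but in KO libraries only the calls of Calb2 (adjusted p = 0.05553) and Necab1 (0.05169) were lost. That of Ncald was lost in heterozygote (0.09722) and in KO libraries only (0.05156). Values near 1 TPM, those of Pvalb and of Necab1 in the lumbar cord, may be limited by depth, which was not tested.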

Other observations

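Genes of the cell type lists that were too low to test between levels were read as values after they had been seen. Chrna2, a nicotinic receptor subunit used to mark Renshaw cells, lay between 0.263 and 0.567 TPM in the 6 brachial libraries and was listed at 0 in all 6 lumbar libraries. Runx1, a transcription factor of blood cells and of some sensory and cervical motor neurons, lay between 0.488 and 1.30 TPM in brachial libraries and between 0 and 0.103 TPM in lumbar libraries. The brachial genotypes had Chrna2 at 0.347 ± 0.0729 TPM in heterozygotes and 0.400 ± 0.145 TPM in KO (SD, n = 3 each), a difference smaller than the spread.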
